A study of Homo sapiens with 12 samples.

Results

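The regions described here are the stretches of chromosome 18 that were open to transposition in G401 rhabdoid tumour cells. Peaks of all 12 deposited lists were merged wherever they overlapped by at least 1 bp, and every merged region on chromosome 18 was kept. That gave 3780 regions out of 187088 in the genome. Chromosome 18 was singled out with results of these libraries known: its regions were already seen to be often present with SMARCB1 and missing without it. The comparison of SMARCB1 with GFP is therefore a description, and only the effect of dBRD9-A and the retention of gained regions are read from tests.

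All cells carried the SMARCB1(-/-) genotype of the line, which comes from a malignant rhabdoid tumour. Doxycycline was given for 24 h and induced either GFP, the control protein, or SMARCB1. Each induction was combined with DMSO, the solvent, or with dBRD9-A, a compound that degrades BRD9, and each of the 4 groups held 3 libraries. All 12 libraries come from 1 cell line, and the labels do not say whether the 3 libraries of a group came from separate cultures. The p-values then measure only the spread between these libraries, which may be technical.

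ATAC-seq uses a transposase that cuts and tags DNA where no nucleosome covers it, so a peak marks a promoter, an enhancer or another site held open. SWI/SNF complexes move and evict nucleosomes. SMARCB1 is a core subunit of the canonical BAF and PBAF forms, which act largely at enhancers and promoters, and its loss defines rhabdoid tumours, whereas BRD9 belongs to the non-canonical form, which lacks SMARCB1. Chromosome 18 is one of the gene-poor human chromosomes, with long intervals between genes, while chromosome 19 is the most gene-dense.

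The gene and region counts were first set against that description of the chromosome. RefSeq's table for GRCh38.p14 lists 270 protein-coding genes on chromosome 18, or 3.37 per Mb, against 6.66 per Mb over the other chromosomes and 24.8 per Mb on chromosome 19. Chromosome 18 had the lowest density but for chromosomes 13 and Y. Open regions were sparse too, with 48.5 regions per Mb against 62.7 on the other chromosomes.

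The lists differed in length and depth before any region was compared. GFP lists held 33428 to 50089 peaks and SMARCB1 lists 71169 to 96572. The background pileup, the mean number of fragments over a base that the peak caller took as genome-wide background and a stand-in for depth, ran from 0.0383 to 0.0784 in GFP libraries and from 0.0487 to 0.111 in SMARCB1 libraries. No SMARCB1 list was as short as the longest GFP list, and the ranges of depth overlapped. How far depth enters the counts depends on how depth is matched, and counts under both ways of matching it are given beside the gains.

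Chromosome 18 held more peaks in every SMARCB1 library than in any GFP library. The GFP DMSO lists had 715, 572 and 566 peaks on the chromosome and the GFP dBRD9-A lists 484, 557 and 789. The SMARCB1 DMSO lists had 1505, 1765 and 1754, and the SMARCB1 dBRD9-A lists 1755, 1365 and 1900. The lowest SMARCB1 list, the second of dBRD9-A, still lay far above the highest GFP list, the third of dBRD9-A. Group means were 618 ± 84.3 and 610 ± 159 peaks for GFP in DMSO and in dBRD9-A, and 1675 ± 147 and 1673 ± 277 for SMARCB1 (SD, n = 3 each). The SMARCB1 mean was 2.71 times the GFP mean in DMSO and 2.74 times in dBRD9-A, where all peaks of the genome gave 2.21 and 2.15 times.

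Chromosome 18 thus took a larger share of the SMARCB1 lists. Its share of all peaks was 1.62% ± 0.0231 in GFP DMSO, 1.53% ± 0.0744 in GFP dBRD9-A, 1.99% ± 0.0474 in SMARCB1 DMSO and 1.96% ± 0.0363 in SMARCB1 dBRD9-A (SD, n = 3 each). The GFP libraries spanned 1.45% to 1.64% and the SMARCB1 libraries 1.92% to 2.04%, with no overlap. Over all libraries the SMARCB1 share was 1.25 times the GFP share, a ratio passed only by that of chromosome Y, at 1.34. Chromosome 13, another gene-poor chromosome, stood at 1.24 and chromosome 19 at 0.610. The difference in share between SMARCB1 and GFP, 0.398 percentage points, was 0.205 when every list was shortened to the length of the shortest.

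**Figure D1:**
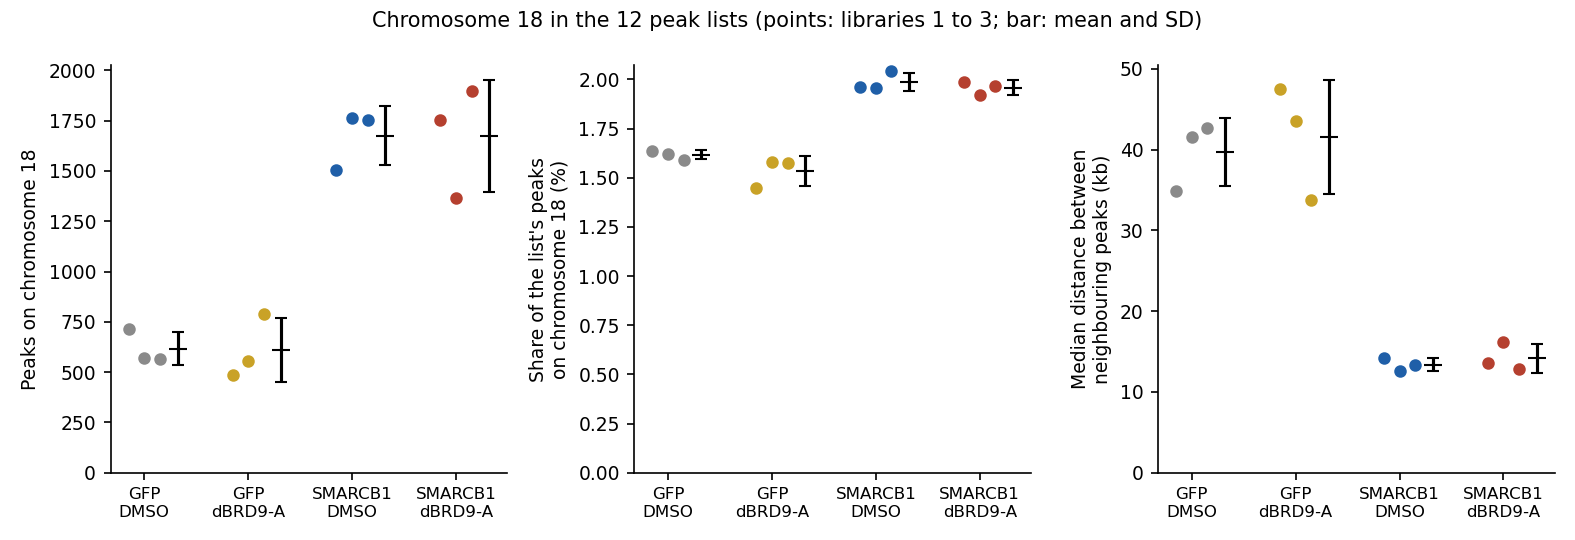
Each point is 1 library, in its group of 3, for the number of peaks on chromosome 18, their share of the list in percent and the median distance between neighbouring peaks in kb, with a bar for the mean and SD. Every SMARCB1 library has more peaks, a higher share and a shorter spacing than every GFP library, and the DMSO and dBRD9-A libraries overlap within each induction, except for the share in GFP libraries (1.59% to 1.64% in DMSO, 1.45% to 1.58% in dBRD9-A).

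Most regions of the chromosome were seen in SMARCB1 libraries alone, as were most regions of the genome. Of the 3780 regions, 2602 (68.8%, other chromosomes 62.2%) had peaks only in SMARCB1 lists, 384 (10.2%, others 11.5%) only in GFP lists and 794 (21.0%, others 26.3%) in both. Presence in a single list was the commonest pattern, with 1582 regions (41.9%), of which 1263 were in a SMARCB1 list and 319 in a GFP list. When at least 2 libraries were asked for, 1339 regions (35.4%, others 30.8%) were present with SMARCB1 alone and 65 (1.72%, others 1.94%) with GFP alone. Presence in 6 libraries was a second peak of the distribution, with 386 regions, of which 330 were in all 6 SMARCB1 and no GFP libraries.

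Only 241 regions (6.38%) were open in all 12 libraries, against 9.75% on the other chromosomes. That put chromosome 18 at rank 23 of 24 chromosomes for such constitutive regions. Constitutive regions were wide and strong, with a median width of 291 bp and a median summit pileup (the number of nucleosome-free fragments over a peak's highest point) of 15.5. Regions seen in 1 library had a median width of 86 bp and a pileup of 3.

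A region was called gained where all 3 libraries of 1 group had a peak and none of the 3 of the other did, and lost in the opposite case. In DMSO, SMARCB1 gained 481 regions on chromosome 18, or 12.7%, against 11.3% of all regions in the genome. In dBRD9-A it gained 474, or 12.5%, against 10.6%. The losses were 12 regions (0.317%, genome 0.323%) in DMSO and 5 (0.132%, genome 0.302%) in dBRD9-A. Of the regions that changed by this rule, 97.6% were gained in DMSO and 99.0% in dBRD9-A, close to the 97.2% over all regions of the genome in each treatment. The 2 treatments share no library, so the gains were set side by side: 330 regions were gained in both, which is 68.6% of the DMSO gains and 69.6% of the dBRD9-A gains. That was 8.73% of the chromosome's regions, against 7.26% elsewhere, 1 region was lost in both treatments, and 0 went in opposite directions.

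These counts moved with how peaks were counted. Leaving out GFP DMSO replicates 1, 2 and 3, each in turn, raised the DMSO losses from 12 to 19, 26 and 28. Leaving out SMARCB1 DMSO replicates 2 and 3 raised them to 20 and 19. The dBRD9-A losses went from 5 to 22, 10 and 9 when GFP dBRD9-A replicates 1, 2 and 3 were left out, and to 11 and 13 when SMARCB1 dBRD9-A replicates 1 and 3 were. The gains lay between 480 and 631 in DMSO and between 473 and 691 in dBRD9-A over all runs that dropped 1 library. Such runs also loosen the rule, because fewer libraries must agree, so a rise in counts is built into them. With all libraries thinned to the same background pileup, gains were 265 in DMSO and 270 in dBRD9-A, the mean number of peaks was 554 ± 38.7 for GFP and 1170 ± 93.9 for SMARCB1 (SD, n = 6 each), and the ratio was 2.11. Thinned instead to the same pileup at regions shared by all libraries, gains were 405 and 412 and the ratio of mean peak numbers 2.64. With every list shortened to the length of the shortest, 132 regions were gained and 64 lost in DMSO, and 119 gained and 41 lost in dBRD9-A.

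The stratified permutation test of presence that serves for dBRD9-A was fitted on the 88398 regions of the genome with peaks in 2 to 10 libraries, 1892 of them on chromosome 18. Since the chromosome was picked on the SMARCB1 contrast, its calls there are only another count of the presence patterns and support nothing. They were 330 higher with SMARCB1 (17.4%, genome 15.4%) and 1 lower (0.0529%, genome 0.131%), which are the 330 and 1 regions above. Before adjustment there were 518 higher (genome 25.9%) and 7 lower (genome 0.482%). The adjusted calls were 0 and 0 when presence needed a peak over 50% of the region, and also 0 and 0 with the replicate number as a block.

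Among the 24 chromosomes, chromosome 18 was rank 2 by the share gained in DMSO, at 12.72%, after chromosome 2 with 12.9%. Chromosomes 8 and 3 nearly tied with it, at 12.67% and 12.65%. In dBRD9-A chromosome 18 was rank 1, at 12.5%, before chromosome 3 at 11.9%. Counted by length the gains were sparse, with 6.17 per Mb in DMSO, which was rank 19. Chromosome 2 had 8.24 per Mb and chromosome 19 had 7.20. There were 1.996 gained regions for each constitutive region in DMSO and 1.97 in dBRD9-A, against 1.16 and 1.09 on the other chromosomes. Chromosome 2 had 1.68 and 1.49, chromosome 13 had 1.65 and 1.54, and chromosome 19 had 0.308 and 0.306. Chromosome Y, with only 8 constitutive regions, was higher, at 4.5 and 3.625. The rank by share moved with the counting. At equal depth chromosome 18 was rank 4 in DMSO and rank 2 in dBRD9-A, with 9.66% and 9.84% gained against 8.51% and 8.40% elsewhere. With the 50% cover rule it was rank 8 in DMSO, at 7.86% against 7.65% elsewhere, and rank 1 in dBRD9-A.

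Across the 22 autosomes the share of constitutive regions followed gene density, with a Spearman correlation of 0.938, and the share gained went the other way, at -0.747 in DMSO and -0.673 in dBRD9-A. These are descriptions over chromosomes that share the same 12 libraries. Chromosome 18 lies at the gene-poor end of both relations, but other gene-poor autosomes gained less. Chromosome 13, with 2.96 genes per Mb, gained 11.6% in DMSO and 10.8% in dBRD9-A. Chromosome 4, with 4.05 genes per Mb, gained 11.1% and 10.4%. Chromosomes X and Y, which the correlations leave out, gained 9.25% and 9.47% in DMSO.

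**Figure D2:**
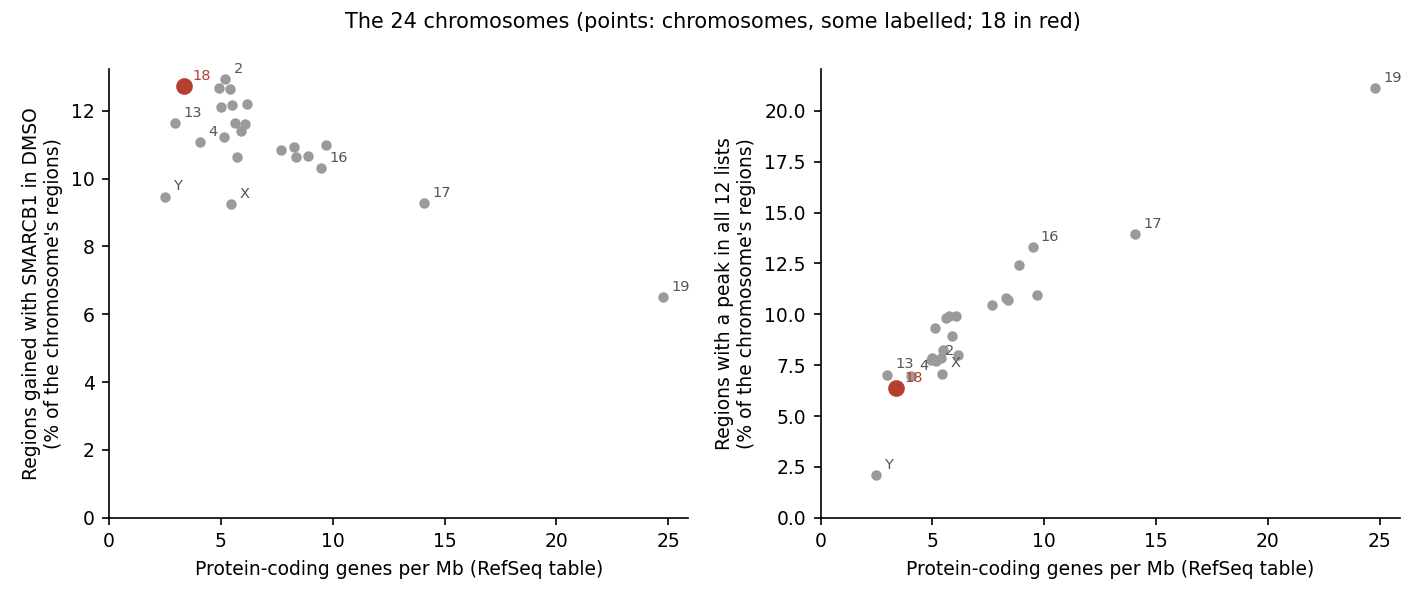
Each point is 1 chromosome, plotted by protein-coding genes per Mb against the percent of its regions gained with SMARCB1 in DMSO (left) and the percent open in all 12 libraries (right). Chromosome 18, in red, has 3.37 genes per Mb, 6.38% of its regions open in all 12 libraries and 12.7% gained, while chromosome 19 lies at the opposite end.

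The constitutive regions of chromosome 18 were somewhat lower than those elsewhere. The geometric mean summit pileup at the constitutive regions of chromosome 18, divided by that of the other autosomes, was 0.861 ± 0.0195 in GFP libraries (range 0.839 to 0.894) and 0.913 ± 0.0120 in SMARCB1 libraries (range 0.891 to 0.925; SD, n = 6 each). The ratio was below 1 in all 12 libraries, and 1 GFP library, the second of DMSO at 0.894, overlapped the lowest SMARCB1 library at 0.891. In a bulk sample, fewer cells with a site open and less opening per cell cannot be told apart.

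Gained regions were weaker than constitutive ones and stronger than regions seen once. The 330 regions gained in both treatments had a median width of 259.5 bp and a median pileup of 8.5. Their median rank by the peak caller's fold enrichment over background, which is the authors' value and was used only within a list, was the 61.0th percentile. The same median was 76.9 for constitutive regions, 28.4 for the regions lost in DMSO and 13.1 for regions of 1 library. Each percentile was averaged over the lists that held the region, so these classes were ranked in unlike sets of lists. The constitutive regions had a mean of the libraries' medians of 72.4 in GFP lists and 83.8 in SMARCB1 lists. The 330 gained regions had 63.5 in the SMARCB1 lists. Within single SMARCB1 libraries the median percentile of the 330 regions ran from 54.6 to 67.6 and was lowest in the second dBRD9-A library, which was also the shallowest of the 6.

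The regions lay along the whole sequenced length, with a single long break. The longest stretch without any region was chr18:15165549-18551911 of hg19, 3386363 bp, at the centromere, and it was used to part the arms. The next longest were chr18:69298928-70429893, with 1130966 bp, and chr18:70429989-71497130, with 1067142 bp. These neighbour each other on the long arm, parted by 1 region of 95 bp.

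The short arm was the denser in open regions, and the share gained differed little between the arms. The short arm held 891 regions, 58.8 per Mb, of which 71 (7.97%) were constitutive and 107 (12.01%) gained in DMSO. The long arm held 2889 regions, 48.6 per Mb, of which 170 (5.88%) were constitutive and 374 (12.9%) gained. In dBRD9-A the order was the other way round, with 114 gains (12.8%) on the short arm and 360 (12.5%) on the long arm. SMARCB1 DMSO libraries had 2.42 times as many regions as GFP DMSO libraries on the short arm and 2.84 times on the long arm. Of the 12 regions lost in DMSO, 1 was on the short arm.

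In bins of 5 Mb, gains followed the number of regions. The 3 bins with most DMSO gains were 20 to 25 Mb (83 of 525 regions), 45 to 50 Mb (50 of 411) and 0 to 5 Mb (42 of 397). Together they held 36.4% of the gains and 35.3% of the regions. The highest shares gained in DMSO were 18.3% at 15 to 20 Mb, the bin that holds the centromeric break (34 of 186), 16.5% at 5 to 10 Mb (32 of 194) and 15.8% at 20 to 25 Mb. In dBRD9-A the highest were 19.4% at 15 to 20 Mb, 14.9% at 50 to 55 Mb and 14.1% at 45 to 50 Mb, while 20 to 25 Mb had 12.4%. The lowest in both treatments was at the end of the long arm, 75 to 80 Mb, with 9 of 133 regions (6.77%), and there 9.77% of the regions were constitutive.

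The bin at 65 to 70 Mb was the least open without SMARCB1. It held 3 constitutive regions, and its GFP libraries had a mean of 9.33 regions in DMSO and 8 in dBRD9-A. The bin at 35 to 40 Mb, with GFP means of 14 and 12, stood out by the highest ratio of SMARCB1 to GFP regions. This bin held 5 constitutive regions, while 30 regions were gained in DMSO and 28 in dBRD9-A. Its SMARCB1 libraries held 6.36 times as many regions as its GFP libraries in DMSO and 6.89 times in dBRD9-A. At 75 to 80 Mb these ratios were 1.66 and 1.43. Every SMARCB1 library exceeded every GFP library in 15 of the 16 bins, the last bin being the exception.

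**Figure D3:**
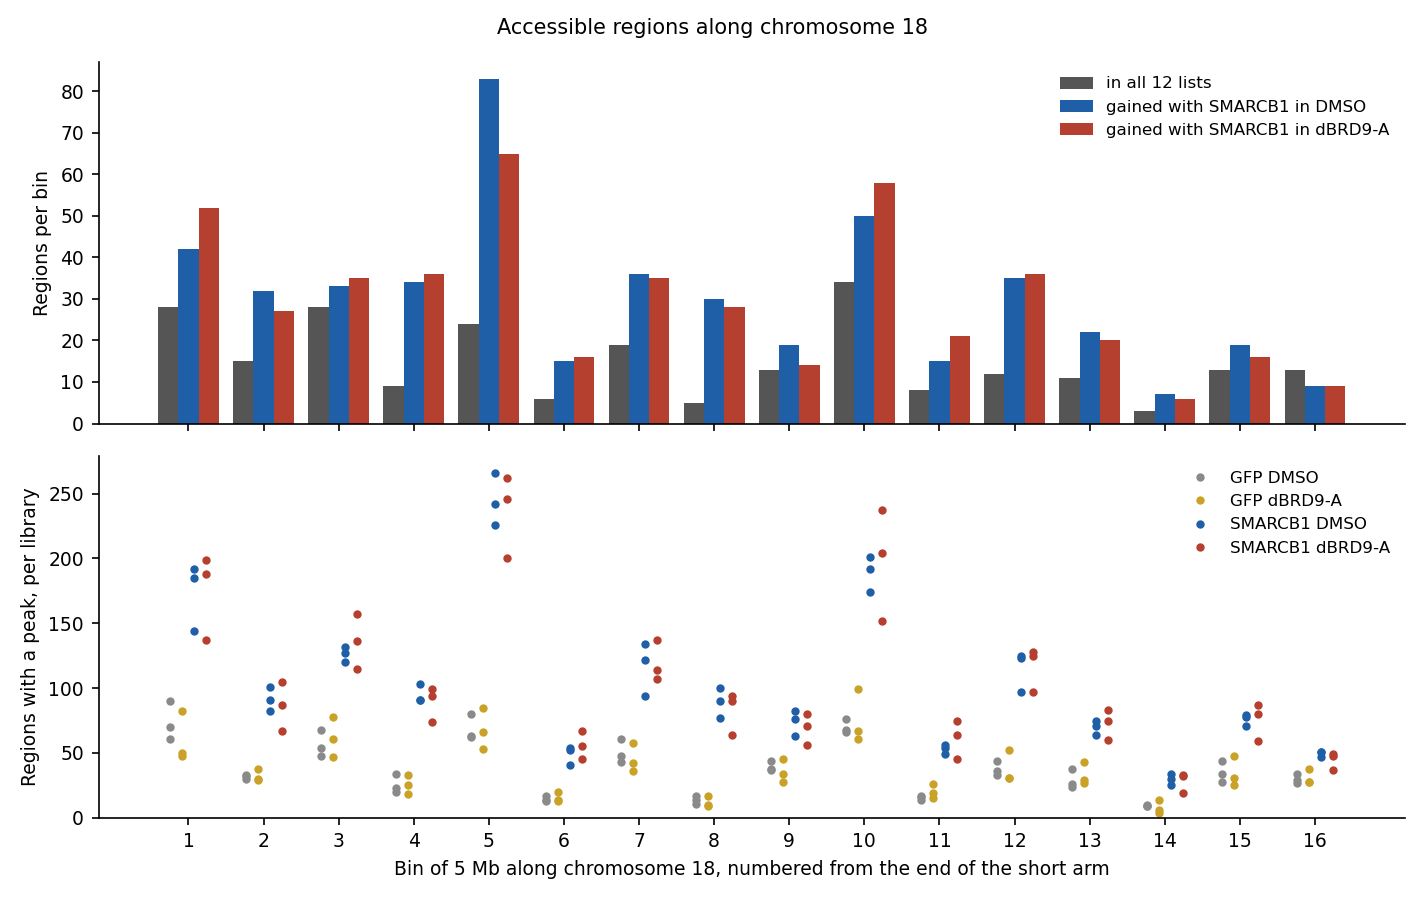
Bins of 5 Mb along chromosome 18, numbered from the end of the short arm. Bars give regions open in all 12 libraries or gained in DMSO or dBRD9-A, and points give the regions with a peak in each library: bin 8 (35 to 40 Mb) has 5 constitutive and 30 DMSO-gained regions, and bin 16 has 9 gained.

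Peaks lay closer together in SMARCB1 libraries, as any longer list of peaks would give. The median distance between neighbouring peaks was 34845, 41610 and 42700 bp in GFP DMSO and 47476, 43509 and 33811 bp in GFP dBRD9-A. It was 14259, 12638 and 13310 bp in SMARCB1 DMSO and 13583, 16230.5 and 12788 bp in SMARCB1 dBRD9-A. The 2 inductions did not overlap. The log2 difference of -1.55 between them was -0.24 with lists of equal length. Peaks covered a mean of 94.6 kb and 90.6 kb of the chromosome in GFP DMSO and dBRD9-A, and 265 kb and 264 kb in SMARCB1.

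Long intervals without a peak became fewer but did not vanish. Leaving aside the centromere, GFP libraries had 25 to 31 intervals of more than 500 kb, which summed to 29.8 to 38.5 Mb. SMARCB1 libraries had 16 to 22, which summed to 21.8 to 27.4 Mb. More peaks shorten such intervals wherever they fall, and no value here corrects for that.

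Gains and regions of 1 library alike lay far from constitutive regions on this chromosome. The constitutive regions of chromosome 18 were spaced at a median of 87123 bp, and the DMSO gains at 41842 bp. A gained region was a median of 73192 bp from the nearest constitutive region, against 57008 bp on chromosome 2, 66627 bp on chromosome 13, 13438 bp on chromosome 19 and 44515 bp over the other chromosomes. Within 10 kb of a constitutive region lay 48 gained regions (9.98%, other chromosomes 16.5%), and 186 (38.7%, other chromosomes 28.7%) were more than 100 kb away. Regions of 1 library on chromosome 18 lay at much the same distance, with a median of 70885.5 bp and 41.3% beyond 100 kb. The median distance therefore did not set the gains apart from these regions. Most of them, 1263 of 1582, were themselves in a SMARCB1 list, so they are no independent control. Beyond 500 kb lay 5.61% of the gains and 10.6% of the regions of 1 library.

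**Figure D4:**
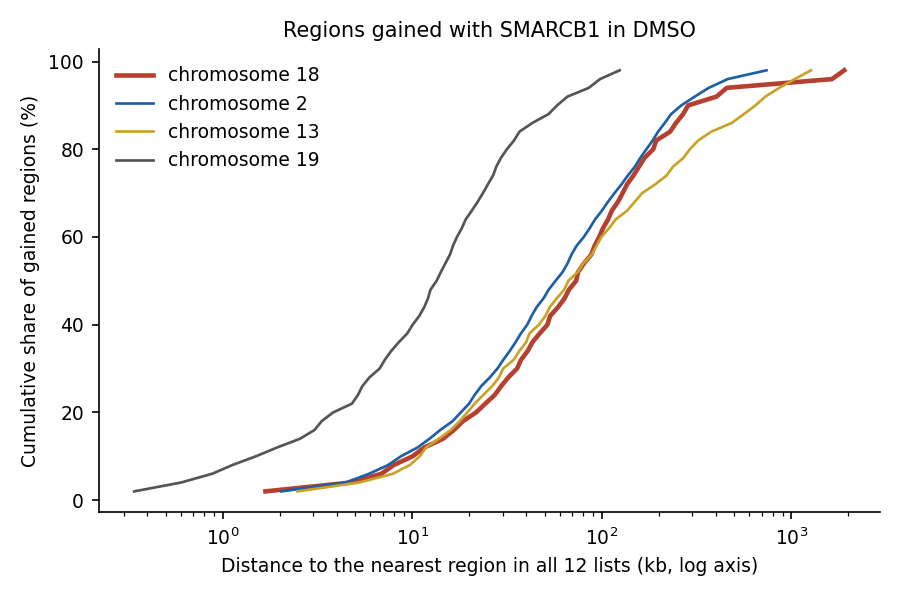
Cumulative share of DMSO-gained regions by distance to the nearest region open in all 12 libraries, on a log axis in kb, for chromosomes 18, 2, 13 and 19. The curve of chromosome 18, with a median of 73192 bp, runs close to those of chromosomes 2 and 13 up to the median. The curves part higher up. At the 90th percentile chromosome 18 has 285616 bp, chromosome 2 262756 bp and chromosome 13 646638 bp. At the 96th, chromosome 18 has 1.64e+06 bp, chromosome 2 461497 bp and chromosome 13 1.04e+06 bp. The curve of chromosome 19 lies far to the left, with a median of 13438 bp.

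Some gained regions sat beside one another. With 12.7% of the regions gained in DMSO, some would do so in any order. No expected share was computed for neighbours or runs, so only other chromosomes are set beside them. Of the 481 DMSO gains, 154 (32.0%) had another gain as an immediate neighbour among the regions of the chromosome, and 53 (11.0%) had a constitutive region. The shares were 32.7% and 10.6% on chromosome 2, 26.6% and 11.0% on chromosome 13, and 16.9% and 32.7% on chromosome 19. Of the 474 dBRD9-A gains, 170 (35.9%) had another gain beside them, against 27.0%, 25.7% and 19.6% on chromosomes 2, 13 and 19. A constitutive region lay beside 11.2% of them, against 11.4%, 8.38% and 29.6%. Joined across distances of up to 12.5 kb, the DMSO gains formed 301 single regions, 56 pairs and 21 runs of at least 3. The runs held 68 gained regions (14.1%, chromosome 2 13.7%, chromosome 13 7.27%, chromosome 19 7.29%). In dBRD9-A 21 runs held 74 (15.6%, chromosome 2 12.6%, chromosome 13 4.57%, chromosome 19 6.38%). In either treatment 0 of the 21 runs held a constitutive region. Such regions were only 6.38% of the chromosome's regions, and no other chromosome was counted for this, so the 0 marks no trait of the runs.

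The longest DMSO runs had 5 gained regions each. One was chr18:20960027-20986408, where the 5 regions spanned 26382 bp, and it held the tallest peak of the runs shown here. At chr18:20981441-20981855 the summit pileups were 54, 53 and 55 in SMARCB1 DMSO and 73, 38 and 72 in SMARCB1 dBRD9-A, while GFP dBRD9-A replicate 1 had a peak of 3 and no other GFP list had one. That single weak peak kept the region out of the dBRD9-A gains. Its neighbour at chr18:20960027-20960479 had pileups of 9, 15 and 20 in SMARCB1 DMSO and 15, 8 and 30 in SMARCB1 dBRD9-A, with no GFP peak. The other run, chr18:22499371-22539491, spanned 40121 bp and held 9 regions.

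In dBRD9-A the longest run had 10 gained regions, chr18:56234745-56279229. It spanned 44485 bp and held 17 regions in all. GFP DMSO lists had 0, 0 and 0 of these and GFP dBRD9-A lists 0, 1 and 1, while SMARCB1 DMSO lists had 10, 11 and 11 and SMARCB1 dBRD9-A lists 12, 10 and 14. Of its 10 gains, 6 were also gained in DMSO. The strongest, chr18:56257413-56257750, had pileups of 23, 24 and 23 in SMARCB1 DMSO and 31, 17 and 36 in SMARCB1 dBRD9-A.

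The strongest of the 330 regions gained in both treatments had pileups above the constitutive median of 15.5 in every SMARCB1 library, and a peak in 0 of 6 GFP libraries. They are named by their mean fold percentile over the lists. At chr18:18798876-18799129, close to the centromeric break, the pileups were 26, 29 and 27 in SMARCB1 DMSO and 32, 16 and 27 in SMARCB1 dBRD9-A, and the authors' fold ran from 12.8 to 20.2. At chr18:46293617-46294022 they were 35, 28 and 22, and 37, 23 and 22. In these regions the second dBRD9-A library was at or near the bottom of its group, as it was in depth.

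The next in order were on the long arm too. At chr18:51780699-51781139 the pileups were 26, 22 and 32 in SMARCB1 DMSO and 35, 22 and 24 in SMARCB1 dBRD9-A. At chr18:47220753-47221233 they were 28, 20 and 31, and 37, 16 and 35. At chr18:21299601-21299919 they were 26, 24 and 27, and 29, 17 and 27. Treated and untreated libraries overlapped at all 5 regions.

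The 1 region lost in both treatments lay in the last bin, at chr18:77180100-77180467. Its pileups were 5, 5 and 14 in GFP DMSO and 5, 6 and 12 in GFP dBRD9-A, with no SMARCB1 peak. It was thus weaker than the 5 leading gains. The strongest constitutive region, chr18:54305792-54306118, had 63, 42 and 33 in GFP DMSO, 44, 37 and 55 in GFP dBRD9-A, 50, 39 and 46 in SMARCB1 DMSO, and 63, 34 and 52 in SMARCB1 dBRD9-A, and the 4 groups overlapped. The constitutive regions chr18:61089598-61090014 and chr18:57026454-57026736 came next, with pileups of 28 to 69 and 25 to 50 over the 12 libraries.

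**Figure D5:**
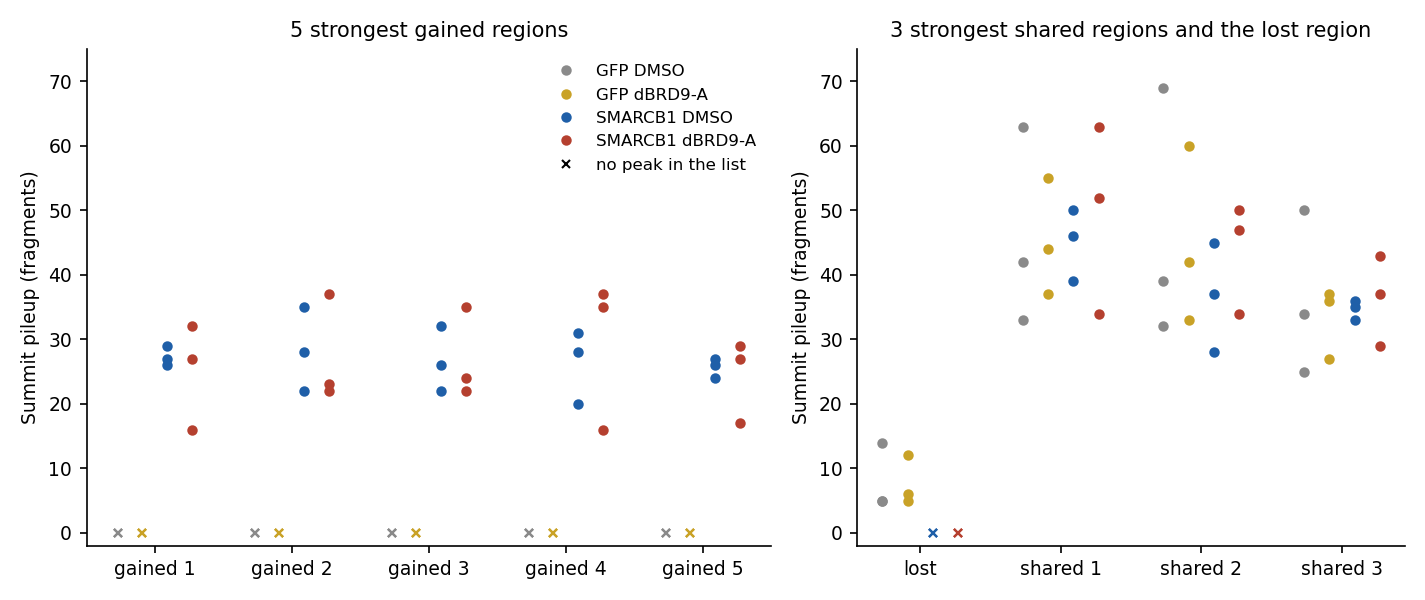
Summit pileup in fragments in each of the 12 libraries at the named regions: the 5 leading gained regions, the region lost in both treatments and the 3 leading constitutive regions; crosses mark libraries with no peak. The 5 gained regions have pileups of 16 to 37 in SMARCB1 libraries and no GFP peak, and the constitutive regions have a peak in every library.

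The question put to dBRD9-A was whether degrading BRD9 changed these regions with or without SMARCB1. By the presence rule few regions differed. In GFP cells 5 regions were gained with dBRD9-A (0.132%, genome 0.135%) and 5 lost (0.132%, genome 0.121%). In SMARCB1 cells 9 were gained (0.238%, genome 0.266%) and 8 lost (0.212%, genome 0.238%). Leaving out 1 library loosens the presence rule, because fewer libraries must agree, so a rise in such small counts is built in. With GFP DMSO replicates 1 and 2, or GFP dBRD9-A replicates 1, 2 and 3, left out in turn, the GFP gains were 10, 9, 18, 14 and 10. With GFP DMSO replicates 1, 2 and 3, or dBRD9-A replicates 1 and 3, left out, the GFP losses were 9, 13, 19, 8 and 22. Without SMARCB1 DMSO replicates 1, 2 and 3 or dBRD9-A replicates 1, 2 and 3, the SMARCB1 gains were 17, 34, 36, 25, 50 and 32, and the losses 41, 21, 47, 22, 14 and 31.

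The stratified exact permutation test found 0 regions of chromosome 18 higher and 0 lower with dBRD9-A, with 0 in each direction genome-wide. At an unadjusted p under 0.05 it also gave 0 and 0 on chromosome 18, against 42 (0.0475%) and 15 (0.017%) of the 88398 regions. Of the 1892 regions tested on chromosome 18, 1339 had peaks only in SMARCB1 lists and 65 only in GFP lists. Labels were permuted within inductions, so the p of such a region could not be below 0.1. With no p below 0.005, an adjusted call also needed a great many regions at that smallest p. The 0 calls therefore do not show that dBRD9-A left the regions alike. The leading regions that differed by the presence rule had low to middling pileups. In GFP cells the leading gain, chr18:8704802-8705284, had pileups of 4, 3 and 5 with dBRD9-A, the next, chr18:5073380-5073502, had 4, 10 and 11, and the leading loss, chr18:32508449-32508655, had 4, 7 and 4 in DMSO. The leading gain and the leading loss were both open in all 6 SMARCB1 libraries, at 5 to 14 and at 8 to 26.

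In SMARCB1 cells the leading gain with dBRD9-A, chr18:44135813-44135933, had pileups of 5, 7 and 10 in dBRD9-A and no peak in SMARCB1 DMSO, yet it was open in 5 of the 6 GFP libraries at 6 to 9. The next, chr18:56234745-56234953, had 7, 8 and 7 and opens the run of 10 gained regions. The leading loss, chr18:21851029-21851247, had 8, 4 and 7 in SMARCB1 DMSO.

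Measured over the chromosome, dBRD9-A made no difference that passed a test. The share of peaks on chromosome 18 was lower with dBRD9-A by a mean difference of -0.0553 percentage points (two-sided exact permutation test, p = 0.06, adjusted p = 0.42 over 7 tests). In GFP cells the 3 DMSO shares (1.64%, 1.62% and 1.59%) all lay above the 3 dBRD9-A shares (1.45%, 1.58% and 1.58%), while in SMARCB1 cells those of DMSO (1.96%, 1.96% and 2.04%) and dBRD9-A (1.99%, 1.92% and 1.97%) overlapped. The difference kept its sign without any 1 library, from -0.0664 to -0.0338, where the lowest p was 0.045 and the lowest adjusted p 0.315. The log2 number of peaks differed by -0.03 (exact permutation p = 0.835), and this sign turned without GFP DMSO replicate 1 (0.03), GFP dBRD9-A replicate 1 (0.05) or SMARCB1 dBRD9-A replicate 2 (0.04). The log2 of the median spacing differed by 0.07 (exact permutation p = 0.49).

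Nor did the effect of SMARCB1 differ between the treatments by a test of that difference. The interaction was 0.0535 percentage points for the share (exact permutation p = 0.45), 0.03 for the log2 number (p = 0.93 by the same exact test) and 0.02 for the log2 spacing (exact permutation p = 0.935), and the adjusted p was 0.935 for each. These tests permuted labels within the levels of the other factor, in 400 arrangements, so no p could be below 0.005. A miss by such a test does not show that values were alike.

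The gained regions were found with dBRD9-A about as often as in an untreated library. Of the 481 regions gained in DMSO, 350 had a peak in 3 SMARCB1 dBRD9-A libraries, 92 in 2, 32 in 1 and 7 (1.46%) in 0. A fair comparison leaves out each SMARCB1 DMSO library in turn, calls the gains from the others and counts how many the left-out library holds: 77.0%, 82.0% and 75.7%, a mean of 78.2% ± 3.31. Counted on the same gains, the SMARCB1 dBRD9-A libraries held 84.5%, 71.8% and 82.6%, a mean of 79.6% ± 6.84 (SD, n = 3 each). The ranges overlapped, the difference was 1.40 percentage points, and the exact permutation p was 0.8. That test had only 20 arrangements of the 6 SMARCB1 libraries, so it could give no very small p. The sign turned without SMARCB1 DMSO replicate 3 (-1.57), dBRD9-A replicate 1 (-0.940) or dBRD9-A replicate 3 (-0.118).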

How the data were processed

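ATAC-seq peak lists of 12 libraries were used, 1 per library, called per library on nucleosome-free fragments, per the labels. The submitters' processing notes name BWA 0.7.12-r1039, SAMtools 1.2, bedtools 2.24.0, MACS2 2.1.1.20160309 and hg19; their settings and the filter on the peaks are not given in the sources used here. The deposited lists give each peak's position, an integer score, the fold enrichment over background (a ratio), the −log10 of the p-value and of the q-value, and the summit offset, all made by the authors' peak caller. The lowest −log10 q was 1.30.

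The summit pileup and background were recovered from the deposited fold and −log10 p, which gave whole fragments for 100% of peaks within a tolerance of 0.001. Read totals were not used here, so the lowest background in a list stood for depth; a shallow library misses weak peaks, and absence from a list does not mean closed chromatin. Peaks were merged at 1 bp of overlap (Python 3.11.15, pandas 2.3.3, numpy 2.4.6). Coordinates are 1-based in hg19.

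Presence was tested per region over the whole genome, and per-library measures by two-sided exact permutation, with Benjamini-Hochberg adjustment over a family of 7 (scipy 1.17.1); scripts were tested on simulated data. The interaction test has little power beside a large main effect. Groups came from the labels. The labels do not say whether shared replicate numbers pair libraries, so the main tests used no replicate block. Correlations between libraries and a run with such a block are given below.

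The regions, the bins and the lists were chosen with earlier results of these data known. Named regions were, by rule, the 5 of highest mean fold percentile gained in both treatments, up to 5 lost, 3 constitutive, for each induction up to 2 that dBRD9-A gained and 2 that it lost, the 3 bins with most gains and the 3 with the highest share, the longest run and the 3 longest empty stretches; other regions in the runs were named after their values were seen. The alternatives were a −log10 q of at least 5, equal list length, equal depth, equal pileup at shared regions, other presence, merging and gain rules, a replicate block, and each library left out. The gene table is of GRCh38.p14, so no gene, promoter, motif or sequence was assigned to a region, and cell identity and the SMARCB1 transgene were not analysed here.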

Additional observations from a re-analysis of the deposited data

How the results depend on the processing

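The tests of dBRD9-A passed no adjusted threshold under any alternative run. The spacing interaction turned sign, to -0.0875 with a −log10 q of at least 5, -0.14 with lists of equal length and -0.0469 at equal depth; the cause was not tested. SMARCB1 gains in DMSO and dBRD9-A were 274 and 265 with the stricter q, 132 and 119 with equal length, 265 and 270 at equal depth, 297 and 303 with 50% cover, and 887 and 871 when 2 of 3 libraries sufficed. The losses were 64 and 41 with equal length, 19 and 14 at equal depth, 48 and 31 with 2 of 3, and 6 in DMSO with the stricter q. With dBRD9-A, GFP losses were 3 with the stricter q and 8 at equal pileup at shared regions, SMARCB1 losses were 2 with equal length, and with 2 of 3 libraries GFP gains and losses were 32 and 31 and SMARCB1 gains and losses 90 and 94. Regions called higher and lower with SMARCB1 by the stratified test were 178 and 0 with the stricter q, 80 and 17 with equal length, 151 and 2 at equal depth, and 0 and 0 with 50% cover. The share difference between SMARCB1 and GFP was 0.205 percentage points with equal length and 0.347 at equal depth, that in log2 number 0.18 and 1.08, and that in log2 spacing -0.24 and -1.25, with -1.31 under the stricter q.

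Under a replicate block the stratified test called 0 regions higher and 0 lower with SMARCB1, since fewer arrangements leave a larger smallest p. The block left the dBRD9-A difference in share at -0.0553 (exact permutation p = 0.09375) and changed no other call. Same-numbered libraries correlated at -0.0691 to 0.255 across groups, and 8 of 12 libraries correlated best with their own number. Within SMARCB1 the same-numbered pairs of DMSO and dBRD9-A gave 0.0541, 0.162 and 0.255, and pairs of different number at most 0.0418. Sample titles of 1 number also carry consecutive running numbers, and the labels do not say what these mark.

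Over runs without 1 library each, the gains were 480 to 631 in DMSO and 473 to 691 in dBRD9-A, and the losses 11 to 28 and 4 to 22. With dBRD9-A the gains were 4 to 18 in GFP and 9 to 50 in SMARCB1, and the losses 5 to 22 and 8 to 47. The stratified test called 332 to 382 regions higher and 1 to 4 lower with SMARCB1 (4 without GFP dBRD9-A replicate 1 and 2 without GFP dBRD9-A replicate 2, SMARCB1 DMSO replicate 2 or SMARCB1 dBRD9-A replicate 3), and 0 to 0 with dBRD9-A. The SMARCB1 difference ranged from 0.376 to 0.409 points in share, 1.38 to 1.56 in log2 number and -1.62 to -1.50 in log2 spacing. The dBRD9-A difference ranged from -0.0664 to -0.0338, -0.13 to 0.0497 and 0.02 to 0.14 in the same measures, the interaction from 0.0105 to 0.0808, -0.12 to 0.23 and -0.12 to 0.12, and retention from -1.57 to 5.32 points. Read totals were not used here, so depth was matched only by background pileup or by pileup at shared regions.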
